A study of Rattus norvegicus with 18 samples.

Results

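The comparison described here set replicating beta cells of old rats against replicating beta cells of young rats. It used 9 of the 18 RNA sequencing libraries of the series, chosen by their labels as old replicative (4 libraries) or young replicative (5 libraries). Beta cells are the insulin-secreting cells of the pancreatic islets. Both groups came from isolated islets kept overnight in RPMI1640 with 10% FBS and 11.1 mM glucose and given 10 micromolar EdU, a thymidine analogue that cells incorporate while they copy their DNA. The series text describes batches of 2 pooled rats, each of them the source of one replicating and one quiescent sample, so a library stands for a pool of animals and an old and a young library never came from the same rats. The labels name no genotype or strain, no age in weeks or months, no sort gate and no number of cells per library, and they call the cell type of every library pancreatic islets.

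Adult beta cells divide rarely, and the share that enters the cell cycle falls as a rodent ages. A cell that takes up EdU has passed through S phase, when DNA is copied, and it may be read some hours later in the following phases or after division. In a dividing cell the transcripts of DNA replication, chromosome segregation and histone genes are high. Comparing replicating cells with replicating cells of another age asks what differs with age among the cells that divide. Because Ensembl rat gene IDs in the files are not paired with gene names and the reference table at hand matched 0 of 27654 IDs to a symbol, genes are given by ID, at most 2 in each direction, and the labelled cell type was not checked against marker genes. For the same reason the role of each gene below is not stated, and no promoter sequence is shown.

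The old replicative libraries held a set of transcripts at several times the level seen in the young replicative libraries. Of 13308 genes tested in the 9 libraries, 62 differed (0.466%; edgeR quasi-likelihood test, Benjamini-Hochberg adjusted p under 0.05), with 58 higher (0.436%) and 4 lower (0.0301%) in old cells. The 58 higher genes differed by log2 fold changes from 1.31 to 5.24 with a median of 3.35, beside a median of -0.01 over all genes tested. The 4 lower genes ran from -1.92 to -1.36 with a median of -1.59. In bulk samples such as these, more or fewer cells of a type and more or less RNA per cell cannot be told apart. This holds for the higher and the lower genes, and the makeup of the libraries was not tested. At an unadjusted p under 0.05 there were 1452 genes (10.9%), 835 above and 617 below 0, and most of them did not pass after adjustment. How many genes were called rested on single libraries. Without old replicative replicate 2 there were 10, all of them higher in old, and without young replicative replicate 2 or 3 there were 15. The count was 34, 38 and 30 without young replicates 1, 4 and 5, and 117 and 101 without old replicates 3 and 4. Without old replicate 1 it was 55, with 39 higher and 16 lower. The balance of directions also differed in DESeq2, which called 732 genes on the same 9 libraries, 347 higher and 385 lower (47.4% higher, against 93.5% by edgeR). It tested 16274 genes, so the tool and the set of genes both differ between these fits. Their parts in the change of balance were not tested.

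**Figure D1:**
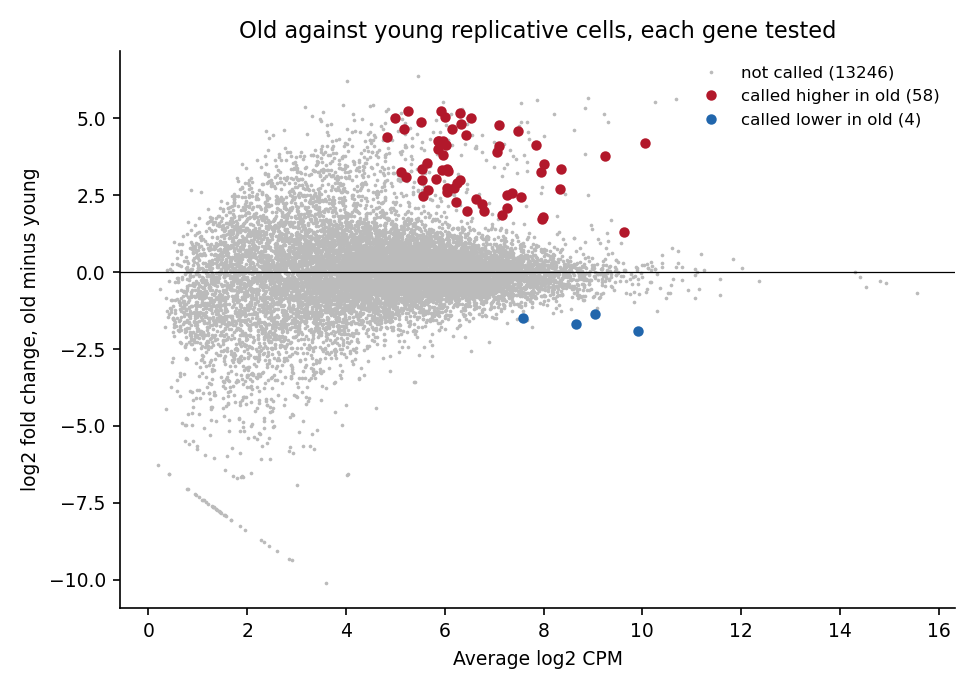
Each point is a gene tested between old and young replicative cells (13308 genes), by its average log2 CPM over the 9 libraries (horizontal axis) and its log2 fold change, old minus young (vertical axis). The 58 genes called higher in old cells (red) lie between 1.31 and 5.24, the 4 called lower (blue) between -1.92 and -1.36, and the spread of grey points widens toward low abundance.

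Among the higher genes ENSRNOG00000010478 had the smallest p. In CPM, reads scaled to a common library total with TMM factors over the 9 libraries, it stood at 268, 498, 427 and 895 in old replicative replicates 1 to 4. In young replicative replicates 1 to 5 it stood at 78.6, 63.5, 32.9, 20.2 and 34.4 CPM. Every old library lay above every young one, with a wide gap between the lowest old and the highest young value. The same libraries chose the named genes, so a lack of overlap in them was favoured by the choice. Over all 13308 genes tested, 865 (6.5%) did not overlap. The means were 522 ± 267 (SD, n = 4) and 45.9 ± 24.2 CPM (SD, n = 5), an 11.4-fold ratio and a log2 fold change of 3.50 (SE 0.421, edgeR adjusted p = 0.00413). These levels rest on 1220 to 5621 reads in old and 114 to 533 in young libraries.

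ENSRNOG00000025053, second by p, was more abundant and more uneven among old libraries. It stood at 1060, 2790, 844 and 314 CPM in old replicative replicates 1 to 4. In the young replicates 1 to 5 it held 115, 70.1, 86.2, 89.8 and 92.4 CPM. Young libraries thus lay close together, while old replicate 2 was far above and old replicate 4 nearest to the young range, still without overlap. The means were 1250 ± 1070 (SD, n = 4) and 90.7 ± 16.1 CPM (SD, n = 5), with a log2 fold change of 3.79 (SE 0.462, edgeR adjusted p = 0.00413).

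Among the lower genes ENSRNOG00000019445 had the smallest p. It stood at 440, 269, 463 and 342 CPM in old replicative replicates 1 to 4. The young replicates 1 to 5 held 909, 1190, 983, 2010 and 2050 CPM. No old library reached the lowest young one, and young replicates 4 and 5 stood well above the other young libraries. The means were 378 ± 89.6 (SD, n = 4) and 1430 ± 560 CPM (SD, n = 5), a log2 fold change of -1.92 (SE 0.292, edgeR adjusted p = 0.00964). The call was lost in 2 of 21 alternative analyses. These were the removal of old replicate 2 (log2 fold change -1.78, edgeR adjusted p = 0.0577) and limma-voom with 1 weight per group (-1.88, limma-voom adjusted p = 0.0919).

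ENSRNOG00000052707 was the other lower gene named by rule. It stood at 289, 140, 170 and 124 CPM in old replicative replicates 1 to 4. The young replicates 1 to 5 held 351, 535, 755, 583 and 693 CPM. The groups did not overlap, but old replicate 1 and young replicate 1 lay close to each other. The means were 181 ± 74.7 (SD, n = 4) and 584 ± 156 CPM (SD, n = 5), with a log2 fold change of -1.69 (SE 0.300, edgeR adjusted p = 0.0266). This gene lost its call in 7 of 21 alternative analyses, which included the removal of old replicate 2 or of young replicate 2, 3, 4 or 5, with log2 fold changes from -2.01 to -1.53 over all 21.

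**Figure D2:**
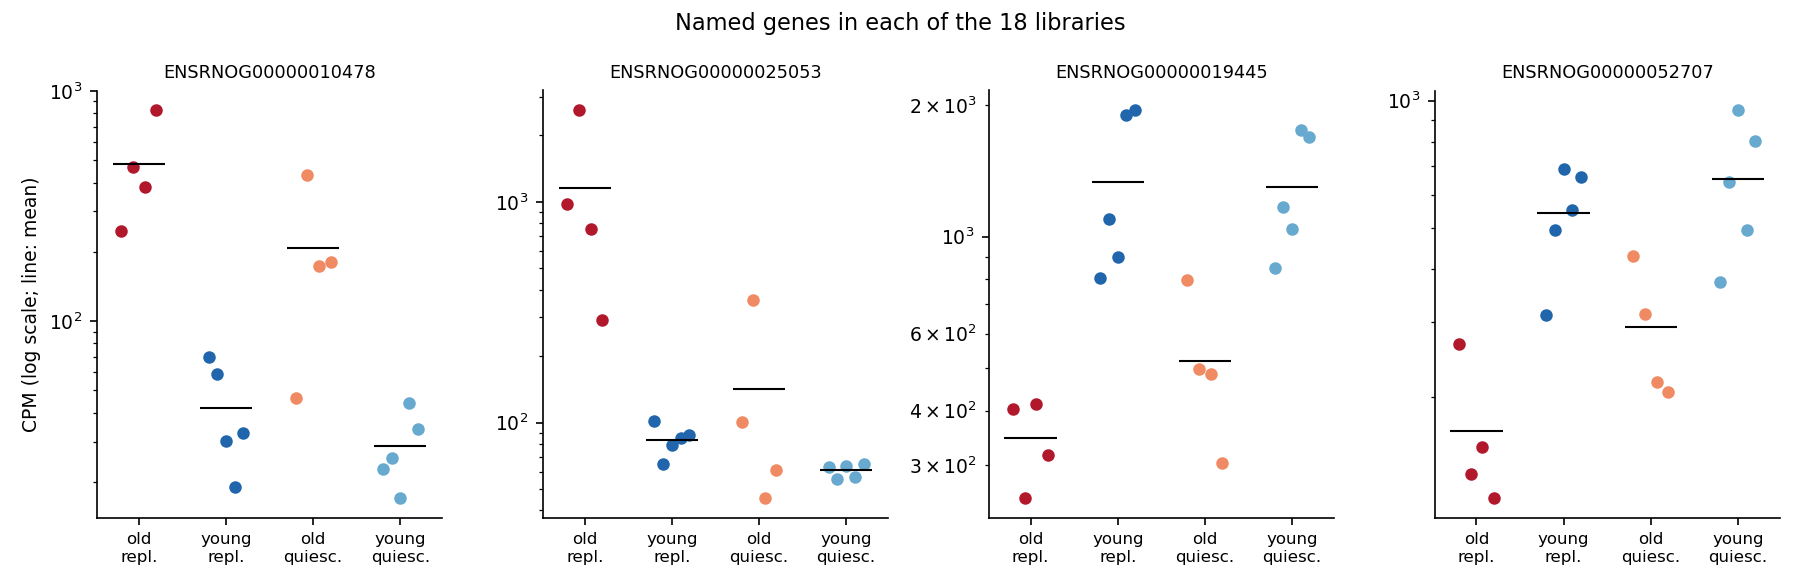
CPM (log axis, TMM-scaled over all 18 libraries) of the 4 named genes; each point is a library and each line a group mean, for old and young replicative cells (n = 4 and 5) and old and young quiescent cells (n = 4 and 5). In replicative cells old and young points do not overlap in any panel, which the choice of these genes in the same libraries favours (6.5% of all genes tested did not overlap). For the 2 genes on the left old quiescent libraries reach down into the range of the young ones or close to it.

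The genes called higher had counts in nearly every library, so between libraries they differed in level rather than in presence. Their abundance and their choice as high in old libraries favour this. Of the 13308 genes tested, 8195 had counts in all 9 libraries. Of the 58, 54 had counts in all 9 libraries, all 58 had counts in every old library, and 0 were without counts in all young libraries. Their average log2 CPM had a median of 6.24 against 4.66 over all genes tested. The 4 lower genes were more abundant still, with a median of 8.85. Fold changes of 4 or more on the log2 scale were found in 21 of the 58, and 5 of them, like all 4 lower genes, had values of at most 2 in size.

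Together the 58 higher genes took a small part of the RNA. Their share of all counts was 1.24%, 2.77%, 1.22% and 1.14% in old replicative replicates 1 to 4. In young replicative replicates 1 to 5 it was 0.293%, 0.209%, 0.219%, 0.144% and 0.176%. The 4 lower genes took 0.0757% to 0.120% of counts in old and 0.193% to 0.380% in young replicative libraries. Since the same libraries picked these genes, the shares only describe how large the difference was.

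The higher genes shared the library in which they peaked. Within the old group, replicate 2 held the highest CPM of 44 of the 58 genes (75.9%), against 25.9% of all genes tested. Replicates 1, 3 and 4 were highest for 2, 7 and 5 of them. Within the young group, replicate 1 was highest for 31 of the 58 (53.4%, against 18.6% of all genes tested) and replicate 4 for 0 (against 24.1%). The same libraries chose these genes, and that choice can favour such shares, so they are descriptions. Without old replicate 2 the median log2 fold change of the 58 genes was 2.91 and 10 kept their call. Of the 58, 8 kept the call whichever of the 9 libraries was left out, and 0 of the 4 lower genes did. Whether old replicate 2 and young replicate 1 differ from the other libraries in the makeup of their cells was not tested.

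**Figure D3:**
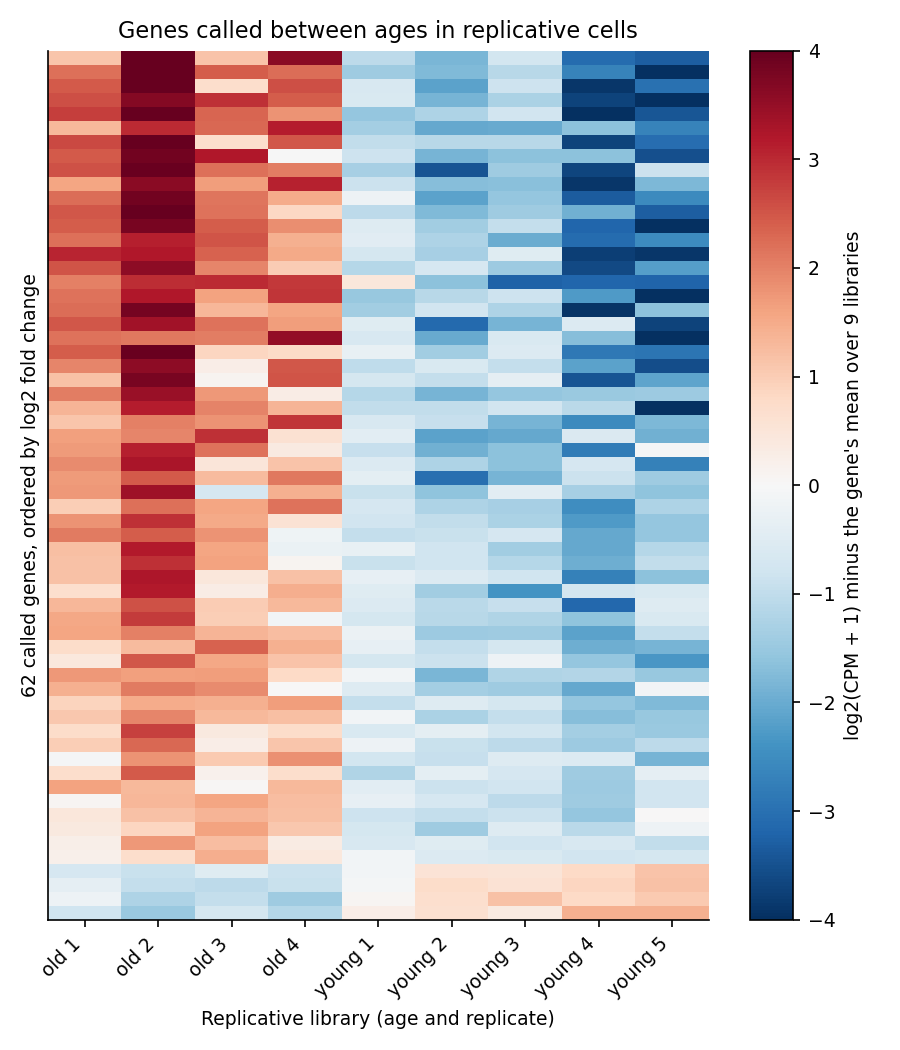
Rows are the 62 genes called between ages, ordered by log2 fold change, and columns are the 9 replicative libraries; colour gives log2(CPM + 1) minus the gene's mean over the 9 libraries, with colours saturating at 4 and -4. Old replicate 2 is the darkest red column, holding the highest level of 44 of the 58 higher genes, and young replicates 4 and 5 are the darkest blue in many of the same rows.

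Calls were found among genes of middle and high abundance. Of the 531 genes whose average log2 CPM was 8 or above, 6 were called higher and 3 lower (1.69%). Of the 2846 genes between 6 and 8, 32 were called higher and 1 lower (1.16%), and of the 4920 between 4 and 6, 20 were called higher and 0 lower (0.407%). No gene was called among the 3599 between 2 and 4 or the 1412 under 2 by edgeR's quasi-likelihood test, where 248 and 126 had an unadjusted p under 0.05. In these classes DESeq2 called 153 and 94 genes, limma-voom 14 and 0 with weights per library and 4 and 0 with weights per group, and the 18-library edgeR model 140 and 89. The median standard error of the log2 fold change was 0.254 in the most abundant class, 0.365 and 0.749 in the next, and 1.37 and 1.57 in the lowest classes. At low abundance, differences of several-fold were thus within the error of these libraries in the reported fit.

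The lean of all genes tested differed between abundance classes and from that of the calls. Among genes under 2 in average log2 CPM, 34.6% had a fold change above 0 and the median was -0.64, while between 4 and 6 the share was 54% and the median 0.09. In the class of 8 or above, 42.4% were above 0 and the median was -0.06. Old and young libraries did not overlap for 865 of all genes tested (6.5%), 356 higher (2.68%) and 509 lower (3.82%) in old cells. In the class under 2, 79 genes lay wholly lower and 1 wholly higher in old libraries, in the class of 4 to 6 the counts were 142 and 161, and in the class of 8 or above 32 and 26. Absent counts moved with this: 39 tested genes had no count in any of the 4 old libraries and 0 had none in all 5 young ones. A gene that passed the low-count filter through the young group alone had to be lower in old cells, so these counts are descriptions. The part of library complexity in them was not tested.

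Old replicative libraries were more unlike each other than young ones. Total counts ran from 2975086 to 8639541 in old and from 5439091 to 8242896 in young libraries, and these totals did not differ past the threshold (two-sided exact permutation p = 0.722). Spearman correlations between libraries ran from 0.626 to 0.790 within the old group, from 0.802 to 0.965 within the young group and from 0.600 to 0.842 between them. The biological coefficient of variation, a measure of relative spread with counting noise removed, was 1.22 in old and 0.641 in young libraries, and 80.2% of genes had the larger SD of log2(CPM + 1) in old libraries. Among the 531 most abundant genes this share was 73.8%, with median SDs of 0.465 and 0.285. The wide spread was thus also present where counting noise is small.

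The number of genes seen varied widely between libraries of either age. At an equal depth of 2975086 counts the old replicative replicates 1 to 4 held 16960, 13995, 11859 and 12520 genes, and the young replicates 1 to 5 held 22095, 19035, 19990, 14619 and 14122. Young replicates 4 and 5 lay within the old range. The means, 13830 ± 2270 (SD, n = 4) and 17970 ± 3470 (SD, n = 5), did not pass the test (two-sided exact permutation p = 0.0794; p = 0.119 after adjustment over 3 library measures). Without old replicate 1 the unadjusted exact permutation p was 0.0357. The share of tested genes with no count was 3.03% to 24.9% in old libraries, highest in replicate 3, and 0.015% to 9.76% in young ones, highest in replicate 5. Without old replicate 3, which stood alone on the first principal component (34.5% of the variance), 117 genes were called, 101 higher and 16 lower.

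**Figure D4:**
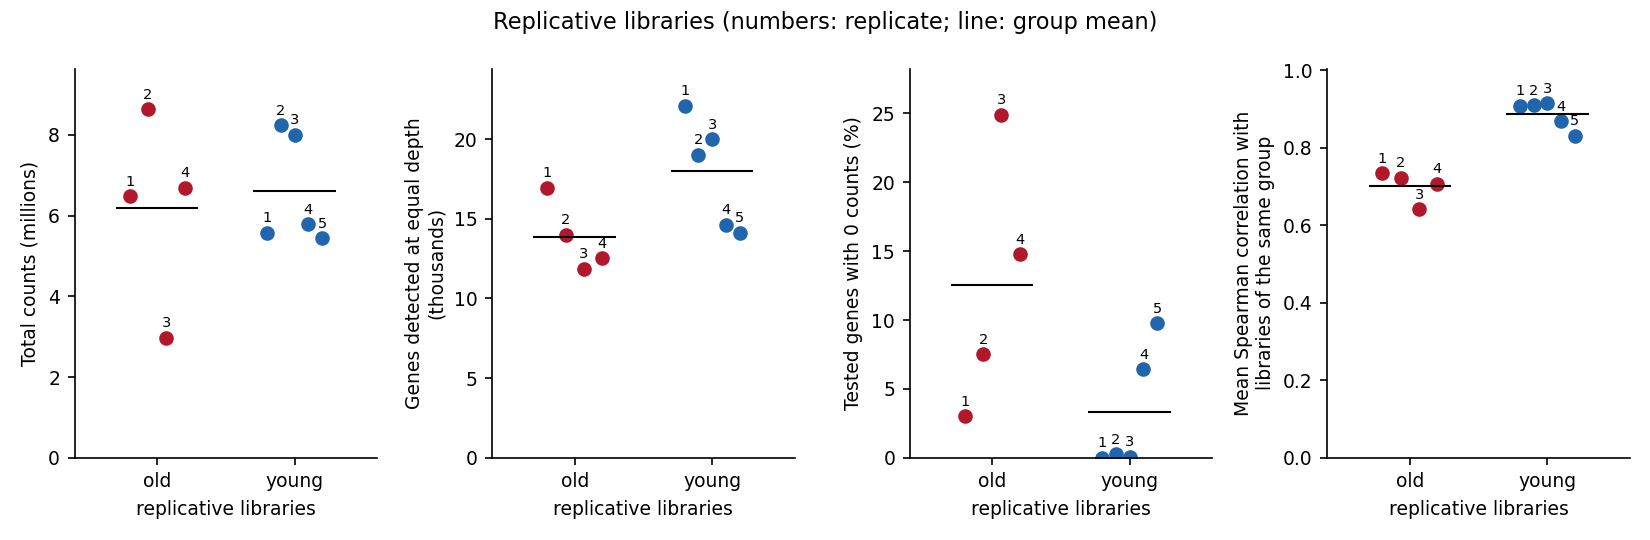
Total counts, genes detected at an equal depth of 2975086 counts, share of tested genes with no count, and mean within-group Spearman correlation, for the old (n = 4) and young (n = 5) replicative libraries; points are libraries numbered by replicate and lines are group means. Old replicate 3 is the shallowest and has 24.9% of tested genes at 0, and all old libraries have lower within-group correlations than all young ones.

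The 10 most abundant genes took 16.2% ± 4.44 of counts in old (SD, n = 4) and 20.9% ± 0.937 in young libraries (SD, n = 5). By library the share was 15.8%, 10.2%, 18.3% and 20.5% in old replicates 1 to 4 and 19.9% to 22.3% in young ones. Old replicate 2 was lowest, and old replicate 4 lay inside the young range. The difference had an exact permutation p of 0.0238 (two-sided) and an adjusted p of 0.0714, so it did not pass after adjustment.

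Quiescent libraries, which played no part in choosing the 62 genes, showed most of these genes on the same side of 0, with smaller values. They come from the same islet batches, so the animals are not new. Of the 58 higher genes, 57 were tested between old and young quiescent cells, and 52 of those had a fold change above 0 (91.2%, against 48.2% of all 12846 genes tested there). Their median was 1.21, with a range from -0.29 to 4.34, beside -0.02 over all genes. Old quiescent replicate 2 held the highest CPM of 50 of the 58 (86.2%, against 19.8% of 14920 genes). The median CPM of the 58 was 44.4 there and 16.2, 12.5 and 14.7 in old quiescent replicates 1, 3 and 4. How far the quiescent values rest on that library was not tested. By the edgeR quasi-likelihood test 7 of the 57 were called higher in old quiescent cells and 0 lower, where 258 of all genes (2.01%) were called, 135 (1.05%) of them higher. At an unadjusted p under 0.05, 33 of the 57 were higher and 0 lower, against 9.3% and 9.41% of all genes. The calls depend on this fit of the 9 quiescent libraries: in a model of all 18 libraries 4 genes were called between old and young quiescent cells (0.0268%), 2 of them among the 58 and 0 among the 4. All 4 lower genes were below 0 in quiescent cells, with a median of -0.91, and 1 of them was called lower (0.957% of all genes were). As a share of each list, the 7 genes called higher in both states are 12.1% of the 58 and 5.19% of the 135.

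The reverse reading used lists chosen in quiescent libraries. Of the 135 genes called higher in old quiescent cells, 129 were tested in replicative cells, where 112 were above 0 (86.8%, against 49.6% of all genes tested) with a median of 0.89, and 7 were called higher, against 0.436% of all genes. Of the 123 genes called lower in old quiescent cells, 115 were tested, 22 were above 0 (19.1%) with a median of -0.94, and 1 was called lower, against 0.0301% of all genes.

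**Figure D5:**
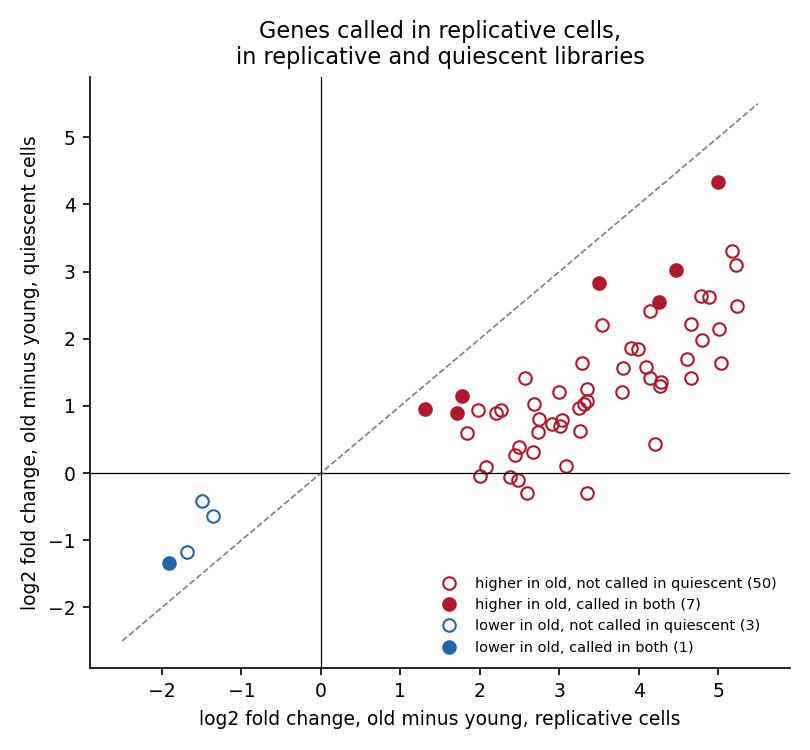
Log2 fold change, old minus young, of the genes called in replicative cells, in replicative cells (horizontal axis) and in quiescent cells (vertical axis; 57 higher and 4 lower genes tested there); filled points were called in quiescent cells too (7 higher, 1 lower) and the dashed line marks equal values. Values on the horizontal axis are pushed outward because they chose the genes; on the vertical axis 52 of the 57 higher genes lie above 0 and all 4 lower genes below it.

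Among the named genes, ENSRNOG00000010478 was also called in quiescent cells. On the scale of all 18 libraries it stood at 46.3, 431, 174 and 180 CPM in old quiescent replicates 1 to 4 and at 17.0 to 44.3 CPM in the 5 young quiescent libraries. All old quiescent libraries lay above the young ones, replicate 1 only just. The log2 fold change was 2.83 (SE 0.539, edgeR adjusted p = 0.0363), and the call held in the 18-library model (edgeR adjusted p = 0.0245). ENSRNOG00000019445 was lower in old quiescent cells too, at 520 ± 203 (SD, n = 4) against 1300 ± 401 CPM (SD, n = 5), a log2 fold change of -1.33 (SE 0.278, edgeR adjusted p = 0.0326). It did not pass in the 18-library model (-1.32, edgeR adjusted p = 0.158).

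The other two named genes did not pass in quiescent cells. ENSRNOG00000025053 stood at 101, 360, 45.4 and 61.2 CPM in old quiescent replicates 1 to 4 and at 55.6 to 64.8 CPM in young ones, with overlap, and its log2 fold change was 1.21 (SE 0.531, edgeR adjusted p = 0.260). ENSRNOG00000052707 stood at 292 ± 104 (SD, n = 4) and 653 ± 232 CPM (SD, n = 5), with a log2 fold change of -1.18 (SE 0.287, edgeR adjusted p = 0.0555).

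Whether the age difference was larger in replicating than in quiescent cells was tested by the interaction of age and status over all 18 libraries. This model takes the 4 groups as independent, although each islet batch gave a sample of each status. It passed for 0 of the 62 genes and for 4 of 14920 genes (0.0268%) by the edgeR quasi-likelihood test, while limma-voom with quality weights called 1 of the 58 higher and 0 of the 4 lower genes. At an unadjusted p under 0.05 the edgeR interaction held for 42 of the 58 and 2 of the 4, against 10.1% of all genes. The difference that chose these genes is a part of this contrast, which favours such shares, so they are descriptions. The log2 interaction of ENSRNOG00000025053 was 2.57 (SE 0.730, edgeR adjusted p = 0.185), and that of ENSRNOG00000010478 was 0.66 (SE 0.662, edgeR adjusted p = 0.816). For the lower genes it was -0.62 (ENSRNOG00000019445, SE 0.420, edgeR adjusted p = 0.682) and -0.54 (ENSRNOG00000052707, SE 0.425, edgeR adjusted p = 0.746). Over the 58 higher genes the interaction had a median of 2.17 and was above 0 for all 58, a direction that their choice in the replicative libraries favours. The result depended on the model and on single libraries. With age and replicate number as a block, chosen after the data were seen, 11 genes passed, 8 of them among the 58, and ENSRNOG00000025053 had an interaction of 2.65 (edgeR adjusted p = 0.00134). That reading assumes that a number marks a batch, which the labels do not say. Without single libraries the count over all genes was 231, 64, 46 and 131 for old replicative replicates 1 to 4 and 4, 0, 0, 12 and 31 for young replicates 1 to 5. Of the 58 higher genes, 6, 3 and 7 passed without old replicates 1, 3 and 4, 2 passed without young replicate 5, and 0 passed when any of the other libraries was left out.

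The 58 genes stood out in the same replicate number in both states of old islets. They took 0.249%, 0.445%, 0.241% and 0.245% of counts in old quiescent replicates 1 to 4, and 0.126% to 0.187% in the 5 young quiescent libraries. Old quiescent replicate 2 held the highest CPM of 50 of the 58 (86.2%, against 19.8% of 14920 genes), as old replicative replicate 2 did for 44. The labels do not say whether a replicate number marks an islet batch. Old replicative replicate 2 deviated most like old quiescent replicate 2 (correlation 0.209), a hint from the data and not the design. The 2 libraries may thus not be independent observations. Whether these 2 libraries share animals, or hold more cells of another type, was not tested. Group means of the share were 1.59% ± 0.786 in old replicative (SD, n = 4), 0.208% ± 0.0558 in young replicative (SD, n = 5), 0.295% ± 0.100 in old quiescent (SD over 4 libraries) and 0.161% ± 0.0309 in young quiescent libraries (SD over 5). Without replicate 2 the old replicative libraries held 1.14% to 1.24%, above every young library. The old and young replicative libraries chose these genes, so this order was set by the choice and only the size is described.

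A model of all 18 libraries, in which the quiescent groups (biological coefficient of variation 0.294 in old and 0.348 in young, against 1.29 and 0.701 in the replicative groups over the same genes) enter the spread estimate, called 1069 genes between old and young replicative cells (7.16% of 14920), 491 higher (3.29%) and 578 lower (3.87%). It included all 58 higher and all 4 lower genes. The share of calls that were higher was thus 45.9% in that model and 93.5% in the fit of the 9 libraries. Both fits share a single spread estimate per gene between groups of unequal spread. A limma-voom fit of the 9 libraries with 1 weight per group lets the groups differ in spread. It called 130 genes, 127 higher and 3 lower, among them 56 of the 58 higher and 1 of the 4 lower genes. Both fits reuse the 9 libraries that chose these genes, so shared calls were favoured in advance.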

How the data were processed

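Libraries were placed in groups by their titles. The deposited counts are whole-number reads per Ensembl rat gene ID, not normalized by the authors; STAR, DESeq2 and build rn6 appear in the submitters' processing notes without role or version, and the counter, annotation release and strand setting were not given in the sources used here. Deposited log2 values equalled log2 of size-factor-scaled counts plus 1, to within 5.2e-14. Unused per-sample columns numbered 0. Overlapping and near-identical genes carry an unmeasured uncertainty.

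The 9 replicative libraries were fitted in R 4.3.3 with edgeR 4.0.16: filterByExpr (minimum count 10, here 1.54 CPM in at least 4 libraries; minimum total 15) left 13308 of 27654 genes, followed by TMM scaling, robust quasi-likelihood F tests and Benjamini-Hochberg adjustment over all genes tested. Standard errors were taken as |log2 fold change| over the root of the F value. Quiescent cells were fitted alike; the interaction used 4 group means over 18 libraries. Library measures had exact permutation tests. The code was tested on simulated data. The pass conditions covered groups of equal spread only, so they do not show how the calls behave at the unequal spread of these libraries.

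Named genes were the 2 smallest p per direction among called genes with an average log2 CPM of at least 2 and a log2 fold change of 1 or more in size. Members, lists and tests were chosen with earlier results of these data known. The 37 gene lists were not run, because 0 of 27654 IDs matched a symbol (reference table of 47357 genes). Alternatives used RLE or upper-quartile factors, DESeq2 1.42.0, limma 3.58.1, other filters, thinning, the replicate number as a block and omission of each library.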

Additional observations from a re-analysis of the deposited data

Results flagged for a closer look

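The age difference differed between replicative and quiescent cells for 4 genes of 14920 by the interaction test (edgeR quasi-likelihood test over all 18 libraries, Benjamini-Hochberg adjustment), all with a negative value. This count rested on single libraries and on the model: it was 231 without old replicative replicate 1, 0 without young replicative replicate 2 or 3, and 11 with age and replicate number as a block. None of the 4 was among the 62 genes called between old and young replicative cells. At an unadjusted p under 0.05 the interaction held for 1513 genes. In 14 checks of single libraries within a group (3 library measures and the 4 named genes in both replicative groups) no library stood far enough from the others to be singled out by Dixon's criterion. With 4 or 5 libraries per group this criterion finds only large departures. The checks did not cover the first principal component, on which old replicate 3 stood alone, or the share of tested genes at 0, highest in that library.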

How the results depend on the processing

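The number of genes called between old and young replicative cells stayed within 1.5 times of 62 in 5 of 21 alternatives and ran from 10 to 1069. It was 29 (25 higher, 4 lower in old) with upper-quartile factors, 732 (347 and 385) in DESeq2, 229 (222 and 7) in limma-voom with quality weights per library and 130 (127 and 3) with 1 weight per group. It was 314 (247 and 67) without a low-count filter, 113 (86 and 27) with 1 CPM in every library of a group, 1069 (491 and 578) in the 4-group model, and 48 (38 and 10) in limma-trend on the deposited log2 values. RLE factors gave 72, thinned counts 74 and removal of the 10 most abundant genes 69. Upper-quartile factors moved the median log2 fold change of all genes from -0.01 to -0.15 and RLE factors to 0.03. None of the 62 genes changed sign in any of the 21 alternatives, an outcome favoured in advance because the same libraries chose these genes. The cause of these differences in number was not tested.

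Leaving out single libraries gave 10 to 117 calls (10 to 101 higher, 0 to 16 lower). The count fell most without old replicative replicate 2 (10) and without young replicative replicates 2 and 3 (15 each), to 30 to 38 without young replicates 5, 1 and 4, and rose to 101 and 117 without old replicates 4 and 3. It was 55 (39 higher, 16 lower) without old replicate 1. With the replicate number as a block 32 genes were called, 31 higher and 1 lower, and ENSRNOG00000010478, ENSRNOG00000025053 and ENSRNOG00000052707 lost the call (edgeR adjusted p = 0.0667, 0.0891 and 0.0789) with log2 fold changes of 3.44, 3.38 and -1.67, against 3.50, 3.79 and -1.69 without the block. Old and young batches come from different rats, so the numbers do not pair these libraries. Deviations of same-numbered libraries correlated at 0.105, 0.0558, -0.0786 and 0.0655, and old replicates 1 and 4 correlated best with their own number.

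The adjusted p of the named genes ran from 1.89e-25 to 0.0667 for ENSRNOG00000010478, from 1.98e-10 to 0.0891 for ENSRNOG00000025053, from 6.76e-14 to 0.0919 for ENSRNOG00000019445 and from 2.64e-07 to 0.284 for ENSRNOG00000052707 over 21 alternatives each.

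Leaving out single libraries, the difference in total counts (-413700, old minus young) ran from -1228000 to 660200, the positive value without old replicative replicate 3. That in genes detected at equal depth ran from -5181 (without old replicate 1, unadjusted exact permutation p = 0.0357) to -3108. That in the share of the 10 most abundant genes ran from -6.083 to -2.65 percentage points. Its unadjusted p exceeded 0.05 on removal of any single library other than old replicate 4. The interaction passed for 2 genes by limma-voom with quality weights and for 0 to 231 when single replicative libraries were left out, with 231 without old replicate 1 and 0 without young replicate 2 or 3. With age and replicate number as a block, an alternative chosen after seeing the data, it was 11. Same-numbered replicative and quiescent libraries deviated together with correlations of 0.0996 to 0.498, and all but young replicate 3 correlated best with their own number, a hint from the data and not the design. The quiescent comparison called 258 genes in its own fit and 4 in the 4-group model. Gene lists could not be run under any setting.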
